A study of Homo sapiens with 36 samples.

Results

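SHP1705 alone was studied here in 6 libraries, those of MDA-MB-231 cells given SHP1705 at 10 µM for 24 h (n = 3) and of cells given its solvent DMSO for 24 h (n = 3), across all genes of the count table they share. They are 6 of the 36 libraries of the series and were taken by the treatment and time in their labels. The series holds 3 sets of 4 groups with 3 libraries each, in which a proteasome inhibitor and SHP1705 were given alone and together. Used here beside the main comparison are the rest of the same 24 h set (SHP1705 at 10 µM with carfilzomib at 10 nM, and carfilzomib at 10 nM alone) and SHP1705 at 10 µM and DMSO at 8 h from the set that tested MG132. MDA-MB-231 is a human triple-negative breast cancer line of mesenchymal character, so the libraries describe 1 line and no untransformed cells. The design text of the series speaks of 3 independent experiments, and it does not say whether a replicate number marks one, so the p-values below measure the spread between these libraries.

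The circadian clock of mammalian cells is a feedback loop of transcription. BMAL1 (gene ARNTL) with CLOCK or NPAS2 binds E-box elements and switches on the period and cryptochrome genes, the REV-ERB genes and many output genes, and the period and cryptochrome proteins then return to the nucleus and repress BMAL1:CLOCK. REV-ERB proteins repress, and ROR proteins activate, a second group of genes that includes ARNTL, NPAS2 and NFIL3. SHP1705 is described by the series as a stabilizer of cryptochrome (CRY, and CRY2 in its title), which is thus a repressor in this loop. No protein was measured, so all values are transcript levels.

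The values are read counts per gene, given as CPM (counts scaled to a library of 1000000, after correction for the composition of the library). Libraries held 24.8 to 27.4 M counts with SHP1705 and 18.9 to 24.2 M counts with DMSO (M, 1000000 counts). None of them went against its label, judged by the clock gene PER3. Since PER3 is itself among the results below, this is no independent check of the labels. All 10 marker genes of the MDA-MB-231 line (VIM, CD44, AXL and others) were measured, with a summed level of 5203 to 5309 CPM with SHP1705 and 5327 to 5369 CPM with DMSO, and none was called. Of the markers of other cells some were at or near 0 reads, such as MS4A1 of B cells at 0 in all 6 libraries and POSTN of fibroblasts at 0 in 5 and 1 in the other. Others of these lists were present, among them COL1A1 of fibroblasts at 229 to 281 reads with SHP1705 and 155 to 209 with DMSO and ESAM of endothelium at 1631 to 1974 with SHP1705 and 1323 to 1606 with DMSO. Of 12 luminal epithelial markers 8 were measured and 1, ELF3, was called, with sums of 1469 to 1511 CPM after SHP1705 and 1396 to 1427 CPM in DMSO, while ESR1 had at most 3 reads. None of the 5 measured fibroblast, 4 blood, 3 endothelial or 1 liver marker genes was called. Fibroblast markers summed to 21.4 to 23.9 CPM with SHP1705 and 19.5 to 20.2 CPM with DMSO, blood markers to 11.9 to 13.8 CPM with SHP1705 and 8.83 to 12.98 CPM with DMSO. Endothelial markers summed to 69.2 to 78.0 CPM with SHP1705 and 71.0 to 77.7 CPM with DMSO, and liver markers to 35.5 to 39.0 CPM with SHP1705 and 31.9 to 43.0 CPM with DMSO.

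The E-box arm of the clock fell together at 24 h. All 12 measured E-box clock genes were called lower with SHP1705, with a median log2 fold change of -2.63, where 2.51% of all 16183 genes tested were called lower and the median over all of them was 0.00. The list holds 14 genes, and 2 of them, HLF included, were not tested because at most 15 reads were counted in any of the 6 libraries. A gene is called when edgeR's quasi-likelihood test gives a Benjamini-Hochberg adjusted p under 0.05 over all genes tested. The libraries are bulk RNA, so a lower level in every cell and a lower share of cells with the transcript cannot be told apart.

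**Figure D1:**
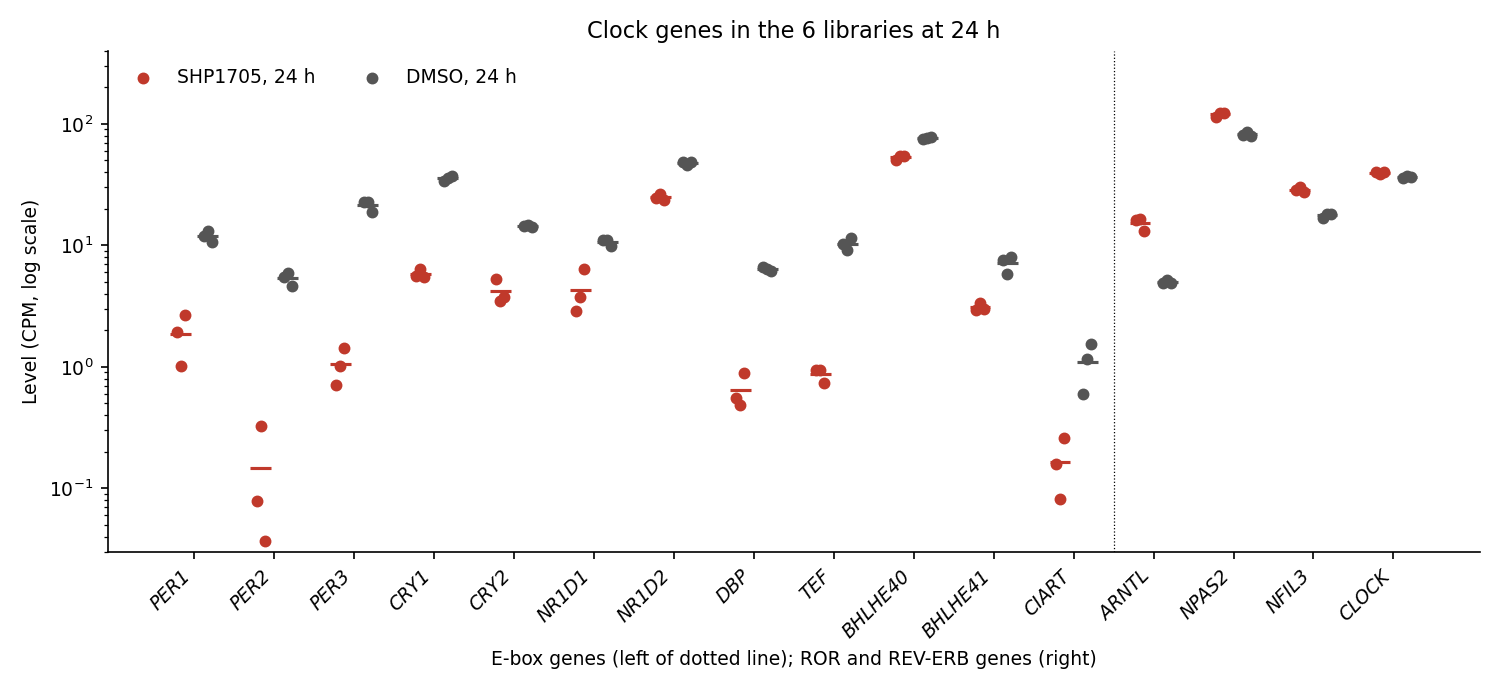
Level of 16 clock genes in CPM (log axis) in each of the 3 SHP1705 libraries (red, left of each pair) and 3 DMSO libraries (grey, right) at 24 h, with the mean of 3 as a bar. The 12 E-box genes left of the dotted line lie lower with SHP1705 in every library, and ARNTL, NPAS2 and NFIL3 lie higher.

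Among the period genes, whose proteins partner the cryptochromes in repression, PER2 and PER3 had the lowest fold changes of all clock genes. PER2 was at 0.0788, 0.324 and 0.0367 CPM with SHP1705, against 5.51, 5.87 and 4.65 CPM with DMSO. These SHP1705 values rest on few reads, 2, 8 and 1 reads with SHP1705, against 121, 141 and 87 reads with DMSO. Its log2 fold change was -5.18 ± 0.41 (SE, adjusted p = 1.4e-08, edgeR quasi-likelihood test), the lowest of all called genes. PER3 was at 0.709, 1.01 and 1.43 CPM after SHP1705, against 22.6, 22.9 and 18.9 CPM after DMSO. It changed by -4.34 ± 0.17 (adjusted p = 3.43e-14), which is 20.2-fold lower. PER1, which glucocorticoid and other acute signals also induce, was at 1.93, 1.01 and 2.68 CPM in the SHP1705 libraries, against 11.8, 13.1 and 10.6 CPM in the DMSO libraries. With SHP1705 replicate 2 lowest and replicate 3 highest, PER1 still lay 6.27-fold lower (-2.65 ± 0.21, adjusted p = 9.78e-09). No SHP1705 library reached a DMSO library for any of the 3 genes.

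Both cryptochrome genes fell as transcripts. CRY1 was at 5.63, 6.41 and 5.51 CPM with SHP1705, against 33.8, 35.6 and 37.5 CPM with DMSO. Its log2 fold change of -2.61 ± 0.09 had the lowest p of all genes (adjusted p = 1.07e-14). CRY2 was at 5.32, 3.49 and 3.75 CPM after SHP1705, against 14.5, 14.6 and 14.3 CPM after DMSO, a log2 fold change of -1.79 ± 0.14 (adjusted p = 1.34e-08). CRY1 was thus 6.09-fold and CRY2 3.45-fold lower.

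The REV-ERB genes, whose proteins repress the second arm, fell by smaller amounts. NR1D1 was at 2.88, 3.73 and 6.36 CPM in the SHP1705 libraries, against 11.03, 11.1 and 9.94 CPM in the DMSO libraries. Its SHP1705 libraries spread more than those of its partner, and its log2 fold change was -1.30 ± 0.20 (adjusted p = 0.000152). NR1D1 shares 1075 bases with THRA on the other strand, and THRA was at -0.26 ± 0.08 without a call (adjusted p = 0.0601), so reads in the shared bases cannot be assigned. The same limit holds for the overlaps of NR1D2 with NKIRAS1 (0.33, adjusted p = 0.204) and DBP with SPHK2 (-0.15, adjusted p = 0.343). NR1D2 was at 24.7, 26.4 and 23.8 CPM with SHP1705, against 48.4, 45.8 and 48.3 CPM with DMSO, a change of -0.93 ± 0.08 (adjusted p = 3.05e-08). All SHP1705 libraries lay below all DMSO libraries for both genes.

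Among the output factors, the PAR bZIP genes TEF and DBP had fold changes below that of PER1. TEF, whose protein drives D-box genes, was at 0.946, 0.933 and 0.735 CPM after SHP1705, against 10.3, 9.20 and 11.4 CPM after DMSO, a log2 fold change of -3.56 ± 0.20 (adjusted p = 5.07e-11). DBP of the same family was at 0.552, 0.487 and 0.882 CPM in the SHP1705 libraries, against 6.61, 6.33 and 6.20 CPM in the DMSO libraries, or -3.30 ± 0.28 (adjusted p = 4.46e-08). CIART, a further repressor of BMAL1:CLOCK, had only 4, 2 and 7 reads with SHP1705, against 13, 28 and 29 reads with DMSO. It was called with the widest error of the list (-2.68 ± 0.57, adjusted p = 0.00596), and DESeq2 gave it no adjusted p. The repressors BHLHE41 and BHLHE40 bind E-boxes themselves, and BHLHE40 had the smallest change of the list. BHLHE41 was at 2.96, 3.37 and 2.98 CPM with SHP1705, against 7.61, 5.79 and 8.07 CPM with DMSO (-1.20 ± 0.16, adjusted p = 3.05e-05), and BHLHE40, which hypoxia and many other signals also induce, was at 50.8, 54.2 and 53.9 CPM after SHP1705, against 74.9, 76.1 and 78.4 CPM after DMSO (-0.53 ± 0.05, adjusted p = 1.12e-06).

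In the arm under ROR and REV-ERB, 3 of the 5 measured genes rose, against 1.95% of all genes tested. ARNTL, the gene of BMAL1, was at 16.2, 16.5 and 13.1 CPM in the SHP1705 libraries, against 4.88, 5.20 and 4.92 CPM in the DMSO libraries. It rose by 1.60 ± 0.12 on the log2 scale (adjusted p = 7.56e-09), 3.04-fold, with all 3 SHP1705 libraries well above the DMSO libraries. NFIL3, the repressor that opposes DBP at D-boxes, was at 28.6, 30.1 and 27.6 CPM with SHP1705, against 16.7, 18.1 and 18.2 CPM with DMSO (0.70 ± 0.11, adjusted p = 0.000146). NPAS2, a CLOCK paralogue, was at 115, 123 and 123 CPM after SHP1705, against 80.5, 86.3 and 78.8 CPM after DMSO (0.55 ± 0.06, adjusted p = 2.45e-06). CLOCK itself was at 0.12 ± 0.06 (adjusted p = 0.353) and the scarce RORA at 0.80 ± 0.51 (adjusted p = 0.486), neither called, and RORB with at most 4 reads was not tested. None of 9 other measured clock genes was called. They include ARNTL2, TIMELESS, the casein kinase CSNK1D, the ubiquitin ligase parts FBXW11, BTRC and DDB1, the kinase CDK5 and the deubiquitinase USP2, and log2 fold changes of the 9 ran from -0.54 (USP2, under 1 CPM) to 0.18 (CDK5).

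Promoter sequences show where E-box letters stand in genes that fell. The sequences below are from RefSeq on GRCh38.p14, written 5′ to 3′ on the strand of the gene. Each runs from 250 bases before to 50 after the start that the promoter set gives for the gene. In MTHFD1L and ARNTL that start lies inside the gene, whose span begins at 150865702 (chromosome 6) and 13276652 (chromosome 11). Capitals mark the E-box CACGTG, and in CRY1 the related E′-box. The E′-box has the letters CACGTT, which stand in CRY1 on the opposite strand. In ARNTL capitals mark AGGTCA, the core that ROR and REV-ERB bind. PER1, TEF and CIART are shown as clock genes with CACGTG and CRY1 as the clock gene with the lowest p. MTHFD1L, BLOC1S3 and GNPDA1 are shown because they lie outside the clock lists, hold CACGTG and had 3 of the 10 lowest p, and ARNTL as the clock gene that rose most. They lie at PER1 (chr17:8152355-8152654, minus strand), TEF (chr22:41367205-41367504, plus strand), CIART (chr1:150282304-150282603, plus strand) and CRY1 (chr12:107093500-107093799, minus strand). The others lie at MTHFD1L (chr6:150866236-150866535, plus strand), BLOC1S3 (chr19:45178534-45178833, plus strand), GNPDA1 (chr5:142012978-142013277, minus strand) and ARNTL (chr11:13277540-13277839, plus strand).
PER1: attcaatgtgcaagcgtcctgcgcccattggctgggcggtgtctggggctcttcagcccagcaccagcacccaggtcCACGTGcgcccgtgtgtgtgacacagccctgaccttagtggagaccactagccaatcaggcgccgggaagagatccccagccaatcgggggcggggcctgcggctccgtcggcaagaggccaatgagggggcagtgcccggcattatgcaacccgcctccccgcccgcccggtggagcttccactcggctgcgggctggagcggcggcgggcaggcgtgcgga
TEF: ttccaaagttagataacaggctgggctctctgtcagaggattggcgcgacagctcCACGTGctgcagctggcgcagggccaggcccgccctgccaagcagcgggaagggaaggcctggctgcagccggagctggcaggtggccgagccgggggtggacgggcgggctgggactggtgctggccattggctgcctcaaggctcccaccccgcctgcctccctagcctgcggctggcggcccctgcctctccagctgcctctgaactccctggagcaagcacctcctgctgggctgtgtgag
CIART: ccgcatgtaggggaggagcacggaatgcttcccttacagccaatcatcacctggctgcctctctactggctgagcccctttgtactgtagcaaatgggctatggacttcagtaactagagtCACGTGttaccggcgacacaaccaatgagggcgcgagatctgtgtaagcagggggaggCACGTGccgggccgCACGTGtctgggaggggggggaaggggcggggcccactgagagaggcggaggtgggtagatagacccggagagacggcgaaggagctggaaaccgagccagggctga
CRY1: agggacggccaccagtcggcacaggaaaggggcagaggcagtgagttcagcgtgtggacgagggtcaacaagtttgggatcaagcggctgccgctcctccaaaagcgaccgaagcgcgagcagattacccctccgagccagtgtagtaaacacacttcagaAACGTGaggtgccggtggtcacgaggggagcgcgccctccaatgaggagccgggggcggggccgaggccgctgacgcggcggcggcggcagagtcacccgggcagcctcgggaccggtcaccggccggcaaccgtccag
MTHFD1L: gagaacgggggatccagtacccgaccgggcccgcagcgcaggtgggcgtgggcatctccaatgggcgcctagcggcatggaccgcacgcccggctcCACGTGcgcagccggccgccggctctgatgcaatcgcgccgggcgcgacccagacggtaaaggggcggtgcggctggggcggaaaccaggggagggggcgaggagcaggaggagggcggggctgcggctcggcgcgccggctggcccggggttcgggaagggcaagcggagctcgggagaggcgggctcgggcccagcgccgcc
BLOC1S3: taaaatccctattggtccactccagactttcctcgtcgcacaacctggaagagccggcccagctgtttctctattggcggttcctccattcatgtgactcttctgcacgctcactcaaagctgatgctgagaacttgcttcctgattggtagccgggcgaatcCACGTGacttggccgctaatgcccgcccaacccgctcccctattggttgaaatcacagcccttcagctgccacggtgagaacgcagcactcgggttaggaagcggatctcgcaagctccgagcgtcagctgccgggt
GNPDA1: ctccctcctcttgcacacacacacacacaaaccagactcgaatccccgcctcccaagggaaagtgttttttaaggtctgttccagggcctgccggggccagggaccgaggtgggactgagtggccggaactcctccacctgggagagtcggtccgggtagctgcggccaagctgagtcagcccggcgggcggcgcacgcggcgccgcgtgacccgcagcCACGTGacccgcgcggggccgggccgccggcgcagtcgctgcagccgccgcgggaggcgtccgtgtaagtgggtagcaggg
ARNTL: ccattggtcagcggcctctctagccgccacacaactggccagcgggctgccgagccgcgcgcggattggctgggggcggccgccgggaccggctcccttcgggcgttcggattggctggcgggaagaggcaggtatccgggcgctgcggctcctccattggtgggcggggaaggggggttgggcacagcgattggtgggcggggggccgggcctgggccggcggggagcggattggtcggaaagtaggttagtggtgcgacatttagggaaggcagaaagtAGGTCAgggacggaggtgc

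Counted from the start used for each window, CACGTG begins at -173 in PER1 and -195 in TEF, and CIART holds 3 copies at -129, -71 and -57. The CRY1 promoter has CACGTT at -89. CACGTG begins at -154 in MTHFD1L, -87 in BLOC1S3 and -31 in GNPDA1, and AGGTCA at 32 in ARNTL. Both strands were searched, and no match marked above overlaps another. CACGTG was in 5 of the 12 E-box clock promoters (the 3 shown, BHLHE40 and BHLHE41) and CACGTT in 3 (CRY1, PER2 and NR1D1). The remaining 4 held neither in this window.

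Across all genes, CACGTG stood in 7.43% of 27305 RefSeq promoters of this length and in 9.96% of those of tested genes. It stood in 81 of the 330 promoters of genes called lower at 24 h (24.5%) and in 27 of the 240 of genes called higher (11.2%). These 27 include the mitochondrial transcript ND1, which a synonym matched to the promoter of a different gene, IVNS1ABP on chromosome 1. Outside the clock and ribosome biogenesis lists the share among genes called lower was 23.3% (72 of 309). Among the 120 promoters of genes called lower both at 24 h and with carfilzomib present it was 33.3%, and among the 90 of genes called lower both at 24 h and at 8 h 27.8%. It was lower among all genes called lower with carfilzomib present (16.7%, 103 of 615) and at 8 h (14.8%, 75 of 506). Among genes that changed 2-fold or more at 24 h, 8 of 25 promoters of those called lower held it (32.0%) and 2 of 7 of those called higher (28.6%). Since CACGTG itself holds C and G letters, the share was also read in 5 bins of promoter GC content. From the lowest to the highest bin it was 20%, 19.6%, 34.5%, 27.2% and 20.6% among genes called lower, and 7.11%, 9.03%, 11.5%, 12.4% and 9.75% among all tested genes. Promoters were matched for 72.6% of tested genes and for 81.3% of those called lower, so the shares are descriptions of the matched genes and carry no test. For CACGTT the shares were 7.88% among genes called lower and 5.88% among tested genes, and for AGGTCA they were 9.39% among genes called lower and 10.1% among tested genes. The xenobiotic element GCGTG, also searched, stood in 62.1% of promoters of genes called lower, 49.8% of tested genes and 45.8% of genes called higher. A higher share among genes called lower was thus not particular to CACGTG. The D-box TTATGTAA stood in 0.909% of genes called lower and 0.366% of tested genes.

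SHP1705 at 24 h changed 722 of 16183 genes (4.46%), of which 316 were higher (1.95%) and 406 lower (2.51%). Most changes were small, since the median size among called genes was 0.33 on the log2 scale and 39 genes changed 2-fold or more (10 higher, 29 lower). A fit of only the 6 libraries, without the carfilzomib libraries that share the estimate of the spread, called 1171 genes (537 higher, 634 lower). Of the 722, 720 were among these with the same direction. Leaving out 1 library at a time gave between 419 and 687 genes. With DMSO replicate 1 absent 419 genes were called, and with DMSO replicate 2 absent 427. Absence of SHP1705 replicate 2 gave 469 genes and absence of replicate 3 gave 439. By the GC content of the gene, in 5 bins of equal size over the 91.1% of tested genes with a value, the genes called lower numbered 21, 39, 77, 98 and 166 from the lowest to the highest bin, and those called higher 60, 54, 73, 72 and 53. With an offset for GC content, chosen after seeing the data, 483 genes were called higher and 511 lower.

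**Figure D2:**
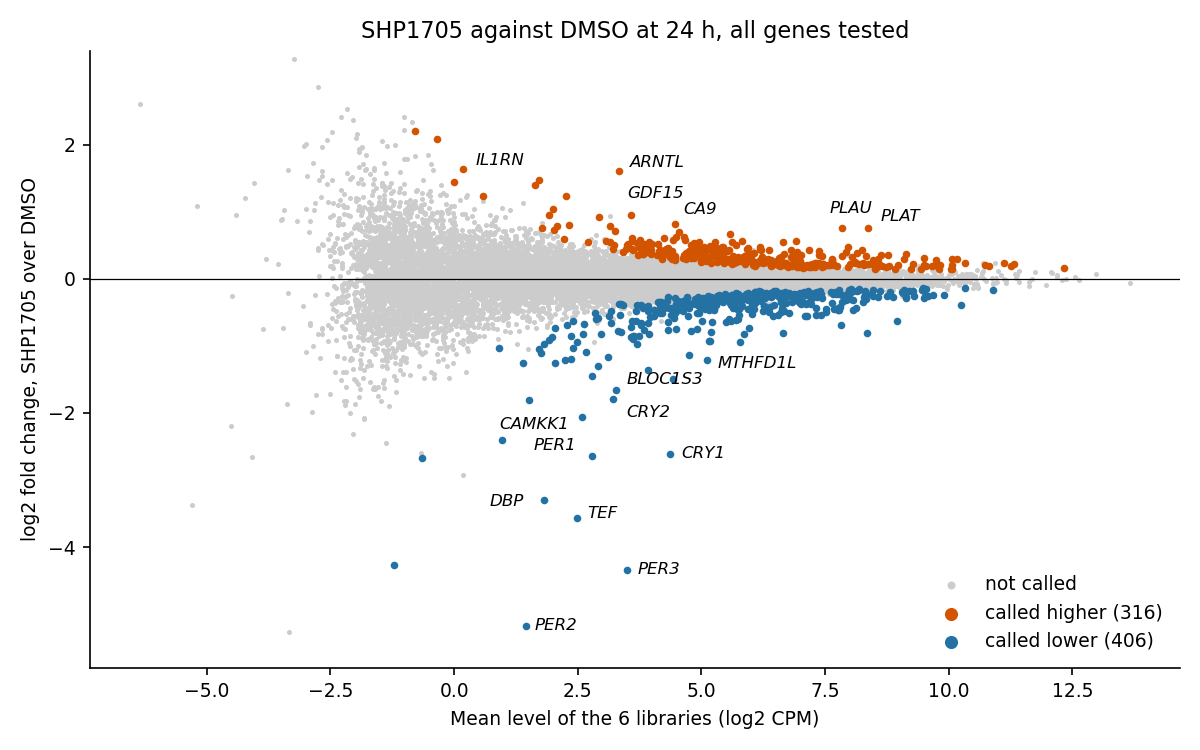
Log2 fold change of SHP1705 over DMSO at 24 h (vertical) against the mean level of the 6 libraries (horizontal, log2 CPM) for all 16183 genes tested, with 316 called higher in orange, 406 called lower in blue and the rest in grey. The clock genes PER2, PER3 and TEF lie at the far lower end together with TRIM31, which is in no clock list, and PLAU and PLAT stand out among abundant genes.

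Both plasminogen activator genes were abundant and rose. PLAU (chr10:73908832-73917494 on GRCh38.p14), the gene of urokinase, was at 284, 294 and 284 CPM in the SHP1705 libraries, against 169, 168 and 173 CPM in the DMSO libraries. PLAT, the gene of tissue plasminogen activator, was at 427, 425 and 402 CPM with SHP1705, against 246, 237 and 257 CPM with DMSO. On the log2 scale PLAU rose by 0.76 ± 0.04 (adjusted p = 5.87e-11) and PLAT by 0.76 ± 0.05 (adjusted p = 7.23e-10). PLAUR, the urokinase receptor, was not called (-0.09 ± 0.06, adjusted p = 0.528). PLAU shares 7526 bases with C10orf55. C10orf55 was called higher as well (1.23 ± 0.32) at 2.10 ± 0.316 CPM with SHP1705 and 0.895 ± 0.204 CPM with DMSO, and its reads cannot be told from those of PLAU. Its call was lost without 1 library in 4 cases (adjusted p up to 0.144).

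Of 14 measured genes of the invasion protease list, 4 rose and 1 fell, where 1.95% of all genes tested were called higher and 2.51% lower. Without DMSO replicate 2, 2 rose. Besides PLAU and PLAT, the membrane collagenase MMP14 (0.22 ± 0.05, adjusted p = 0.0145) and the cathepsin CTSL (0.20 ± 0.05, adjusted p = 0.0225) rose. In the YAP and matrix list, 4 of 20 rose and 3 fell, and 2 rose in each fit without 1 library. Those higher were ANKRD1 (0.35 ± 0.04), a muscle ankyrin repeat cofactor, the collagen gene COL5A1 (0.36 ± 0.05) and the integrins ITGB4 (0.21 ± 0.06) and ITGB1 (0.14 ± 0.04). Those lower included the matricellular CCN2 (-0.52 ± 0.06) and CCN1 (-0.14 ± 0.04). Of 15 epithelial and mesenchymal genes 2 rose, the focal adhesion scaffold NEDD9 (0.56 ± 0.06, adjusted p = 1.83e-06) and the keratin KRT19 (0.18 ± 0.04), while VIM at -0.09 and CDH1 at -0.50 were not called. The calls of ITGB4 and ITGB1 were lost in all 6 fits without 1 library, with adjusted p up to 0.155 and 0.214. Those of MMP14 and CTSL were lost in 3 of these fits each, with adjusted p up to 0.105 and 0.157.

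Outside the clock lists, the genes that fell furthest among those of at least 1 CPM were mostly of low to moderate level. TRIM31 (-4.27 ± 0.94, adjusted p = 0.00726) lay below that level and was named after its values were seen. ADIRF-AS1, a long non-coding RNA, was at 0.355, 0.730 and 0.771 CPM after SHP1705, against 2.73, 4.12 and 2.99 CPM after DMSO (-2.40 ± 0.36, adjusted p = 0.000125). It shares 2434 bases with ADIRF, which was at -1.22 without a call (adjusted p = 0.294). CAMKK1, a kinase upstream of calcium/calmodulin-dependent kinases, was at 2.32, 2.80 and 1.87 CPM in the SHP1705 libraries, against 10.7, 8.83 and 9.56 CPM in the DMSO libraries (-2.06 ± 0.16, adjusted p = 6.98e-09). BLOC1S3, a subunit of the complex that builds lysosome-related organelles, was at 5.36, 4.38 and 4.26 CPM with SHP1705, against 13.8, 16.3 and 13.997 CPM with DMSO (-1.66 ± 0.12, adjusted p = 4.81e-09). MTHFD1L makes formate in the mitochondrial folate pathway and was at 20.6, 21.2 and 20.9 CPM after SHP1705, against 50.2, 47.5 and 46.96 CPM after DMSO. It fell by 1.21 on the log2 scale (-1.21 ± 0.07, adjusted p = 3e-11).

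GNPDA1, a deaminase that returns glucosamine-6-phosphate to glycolysis, was at 23.3, 23.97 and 25.8 CPM in the SHP1705 libraries, against 42.97, 46.2 and 49.8 CPM in the DMSO libraries (-0.93 ± 0.07, adjusted p = 6.24e-09). HAGHL, a relative of glyoxalase II, was at 11.6, 12.04 and 10.1 CPM with SHP1705, against 31.7, 32.8 and 30.99 CPM with DMSO (-1.50 ± 0.12, adjusted p = 1.34e-08). OSGIN1, an NRF2 target that restrains growth, was at 8.71, 7.50 and 9.07 CPM after SHP1705, against 22.2, 20.4 and 22.7 CPM after DMSO (-1.36 ± 0.11, adjusted p = 9.78e-09). Libraries of the groups did not overlap for any of these genes, which was a condition for ranking them. Of the 406 genes called lower, 401 met this condition and that of 1 CPM. The same holds for CENPV (-1.45 ± 0.24), TRAPPC6A of the vesicle tether TRAPP (-1.25 ± 0.29), the WNT regulator AMER1 (-1.25 ± 0.21) and the zinc finger gene ZNF296 (-1.21 ± 0.17). TXNDC5, a protein disulfide isomerase gene, was at -1.81 ± 0.40 (adjusted p = 0.00804). A readthrough transcript with BLOC1S5 covers TXNDC5, so its value is uncertain, and the call was lost without 1 library in 2 cases (adjusted p up to 0.0691), as was that of TRAPPC6A (up to 0.0554).

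The genes that rose most among those of at least 1 CPM were of low level. IL1RN, the interleukin-1 receptor antagonist, was at 1.81, 1.42 and 1.91 CPM in the SHP1705 libraries, against 0.410, 0.833 and 0.374 CPM in the DMSO libraries (1.64 ± 0.42, adjusted p = 0.0251), and its call was lost in 4 of 6 fits without 1 library. ASB2, a ubiquitin ligase adaptor, was at 5.48, 5.23 and 3.89 CPM with SHP1705, against 2.46, 2.12 and 0.534 CPM with DMSO (1.48 ± 0.32, adjusted p = 0.00571). Its promoter window also holds CACGTG, at -207. RAB37, a GTPase of secretory vesicles, was at 4.26, 3.81 and 5.47 CPM after SHP1705, against 1.00, 1.91 and 2.24 CPM after DMSO (1.40 ± 0.27, adjusted p = 0.0025). VGLL3, a cofactor of TEAD transcription factors, was at 6.90, 6.53 and 6.65 CPM in the SHP1705 libraries, against 3.24, 2.75 and 2.56 CPM in the DMSO libraries (1.23 ± 0.17, adjusted p = 4.92e-05). The stress cytokine gene GDF15 was at 14.6, 17.4 and 15.5 CPM with SHP1705, against 8.16, 8.66 and 7.59 CPM with DMSO (0.96 ± 0.12, adjusted p = 2.48e-05). TBC1D3I (1.05 ± 0.23) belongs to a family of near-identical copies among which reads can be split, so its value is uncertain, and its call was lost without 1 library in 2 cases (adjusted p up to 0.0676).

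Smaller rises in the same ranking were those of BMF, a pro-apoptotic BH3-only gene (0.95 ± 0.22), the drug-metabolizing CYP1A1 (0.93 ± 0.15), the membrane proteins SUSD2 (0.80 ± 0.16) and TMEM45A (0.78 ± 0.14), the carboxypeptidase inhibitor LXN (0.71 ± 0.12), and TBC1D8B (0.79 ± 0.19), BTBD8 (0.75 ± 0.20) and ZNF557 (0.72 ± 0.20). Among these, BMF, TBC1D8B, BTBD8 and ZNF557 lost the call without 1 library in 2, 3, 4 and 5 cases of 6, with adjusted p up to 0.0708, 0.119, 0.135 and 0.169.

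Among glycolysis and hypoxia genes the calls were all higher. Of 29 measured, 14 were called higher and none lower, with a median of 0.17, where 1.95% of all genes tested were called higher. CA9, the carbonic anhydrase induced in hypoxia, was at 28.2, 28.6 and 27.6 CPM after SHP1705, against 16.4, 15.2 and 16.5 CPM after DMSO (0.81 ± 0.10, adjusted p = 1.58e-05). PGK1, a glycolytic kinase, was at 1239, 1274 and 1276 CPM in the SHP1705 libraries, against 1019.9, 1031 and 1046 CPM in the DMSO libraries (0.29 ± 0.04, adjusted p = 2.48e-05). BNIP3, a mitophagy receptor, was at 188, 181 and 203 CPM with SHP1705, against 146, 145 and 137 CPM with DMSO (0.42 ± 0.05, adjusted p = 2.68e-05). Groups did not overlap for these 3 genes, which for CA9 was a condition of its place among the highest. BNIP3 shares 3850 bases with PPP2R2D, which was at -0.20 without a call (adjusted p = 0.0861). The other called members were the fructose-2,6-bisphosphate enzyme PFKFB4 (0.55 ± 0.06), NDRG1 (0.29 ± 0.04), the angiogenic factor VEGFA (0.34 ± 0.05), BNIP3L (0.43 ± 0.07), the glucose transporters SLC2A1 (0.30 ± 0.05) and SLC2A3 (0.38 ± 0.06), the oxygen sensor EGLN3 (0.28 ± 0.08) and the glycolytic enzymes TPI1 (0.19 ± 0.04), PGAM1 (0.15 ± 0.04), ENO1 (0.16 ± 0.04) and ENO2 (0.22 ± 0.05). HIF1A (0.07), LDHA (0.05), GAPDH (0.06) and ALDOA (-0.14) were not called. Over the alternatives tried, between 11 and 20 members were called higher and none lower.

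Ribosome biogenesis and MYC target genes moved the other way. Of 28 measured, 11 fell and none rose, with a median of -0.16, where 2.51% of all genes tested were called lower. Between 7 and 15 fell over the alternatives and none rose, with 7 without SHP1705 replicate 3. BOP1, a factor of large subunit maturation, was at 140.1, 131 and 144 CPM after SHP1705, against 204, 194 and 206 CPM after DMSO (-0.54 ± 0.06, adjusted p = 9.26e-06). RRP9, a part of the U3 ribonucleoprotein, was at 41.2, 46.2 and 44.6 CPM in the SHP1705 libraries, against 65.8, 60.99 and 65.2 CPM in the DMSO libraries (-0.54 ± 0.07, adjusted p = 3.11e-05). CAD, which starts pyrimidine synthesis, was at 140.2, 139 and 126 CPM with SHP1705, against 183, 190.1 and 175 CPM with DMSO (-0.43 ± 0.06, adjusted p = 5.26e-05). Nucleolin NCL (-0.26 ± 0.04), the polyamine enzymes ODC1 (-0.28 ± 0.04) and SRM (-0.22 ± 0.05), NOP56 (-0.27 ± 0.05), NOP2 (-0.20 ± 0.06), NPM1 (-0.14 ± 0.04), RRP12 (-0.21 ± 0.05) and MRTO4 (-0.22 ± 0.05) also fell. MYC itself was not called (-0.08 ± 0.06, adjusted p = 0.532). CACGTG is in 40.9% of the 22 promoters matched for this list, against 9.96% of tested genes. None of 30 cytosolic ribosomal protein genes was called (median -0.04).

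**Figure D3:**
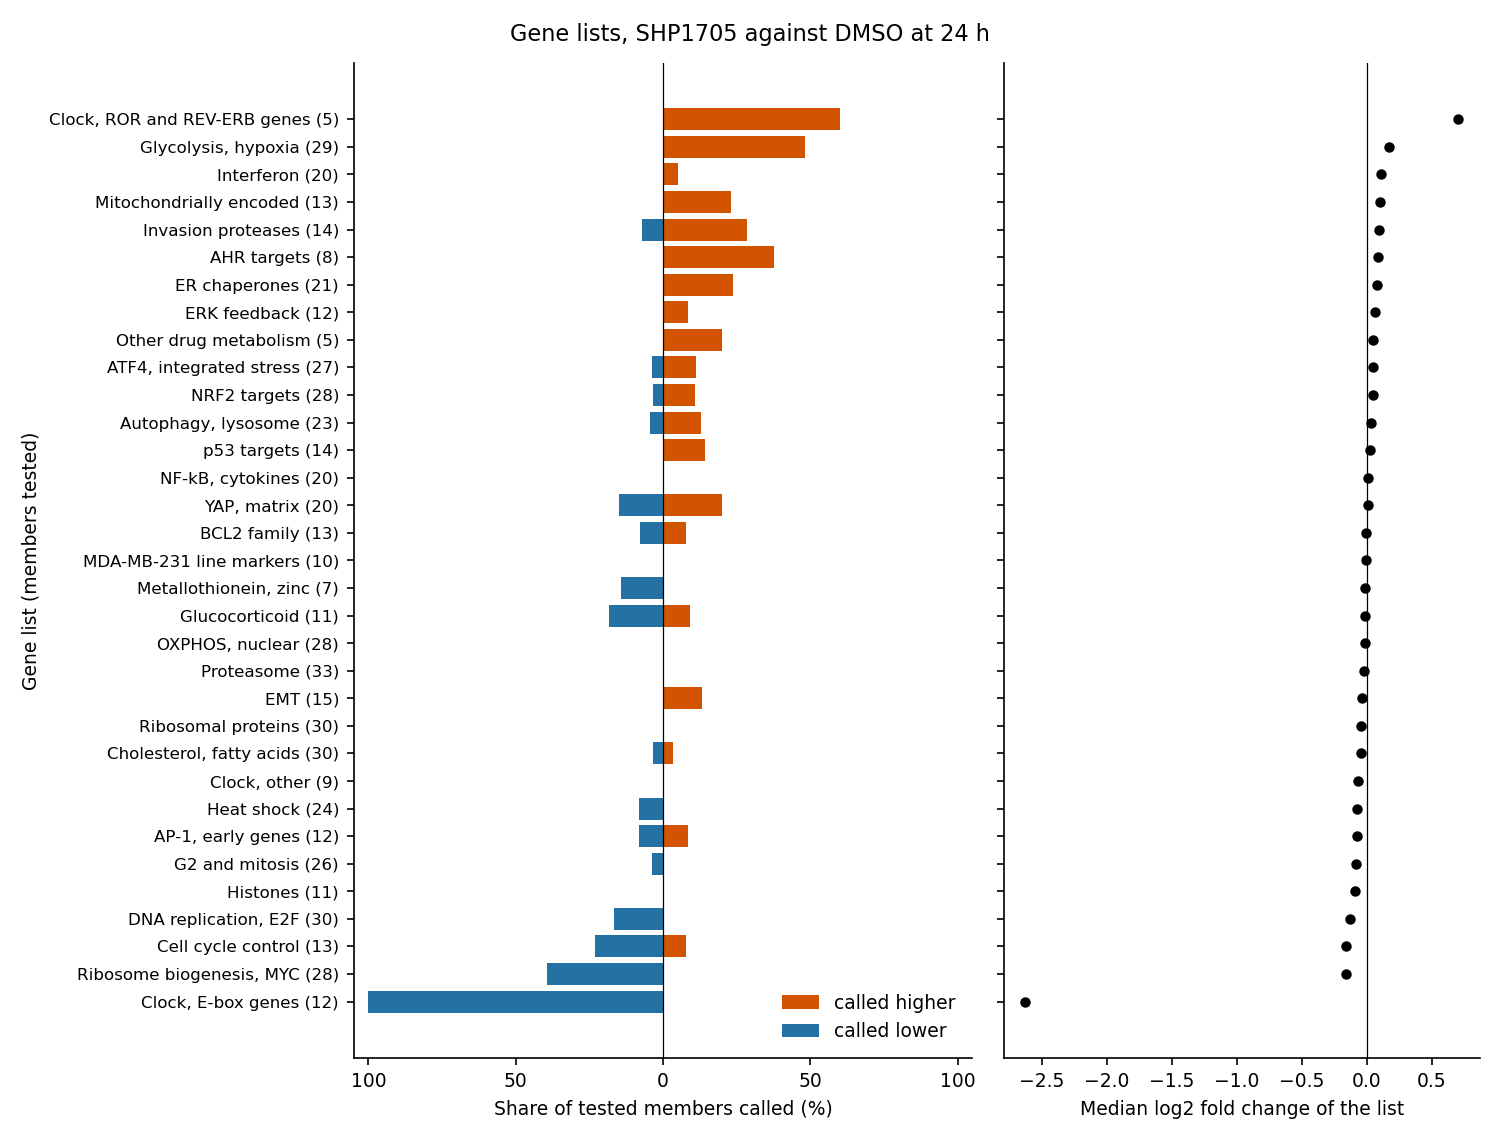
Share of the tested members of each gene list called higher (orange, to the right) or lower (blue, to the left) with SHP1705 at 24 h, and the median log2 fold change of each list (black points, right panel), with the number of tested members in brackets. The E-box clock list stands alone at -2.63, and the glycolysis and hypoxia and the ribosome biogenesis lists are the next most one-sided among lists of over 20 genes.

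Changes of cell cycle genes were small in size. Of 30 DNA replication and E2F genes 5 fell and none rose (median -0.13), where 2.51% of all genes tested were called lower and 1.95% higher. Between 2 and 10 of the 30 fell over the alternatives, with 2 without DMSO replicate 2, 3 without DMSO replicate 1 or 3 or SHP1705 replicate 2 or 3, and 10 from the groups compared alone. The 5 were the activator E2F1 (-0.30 ± 0.06), CDC45 (-0.29 ± 0.06) and CDT1 (-0.25 ± 0.07) of origin firing and licensing, the thymidylate synthase gene TYMS (-0.43 ± 0.10) and UHRF1 (-0.23 ± 0.06). TYMS shares 10593 bases with ENOSF1, which was not called (0.01 ± 0.08). Of 26 G2 and mitosis genes only CDC20 was called (-0.24 ± 0.05, adjusted p = 0.00282). Among 13 cell cycle control genes CDK4 (-0.49 ± 0.07, adjusted p = 4.92e-05), CCND3 (-0.23 ± 0.05) and the inhibitor gene CDKN2C (-0.24 ± 0.07) fell, while the CDK inhibitor gene CDKN1A rose. CDKN1A was at 219.9, 219 and 221 CPM after SHP1705, against 179, 179 and 178 CPM after DMSO (0.30 ± 0.05, adjusted p = 0.000155). CDKN1A and GDF15 were the 2 called of 14 p53 targets, and MDM2 was at 0.07 ± 0.07 without a call. None of 11 histone genes was called. The calls of CDT1, UHRF1, TYMS, CDKN2C and CCND3 were lost in 5, 4, 2, 4 and 2 of the 6 fits without 1 library. Counting all alternatives, CDT1 lost the call in 7. The adjusted p of these 5 genes reached 0.173, 0.209, 0.1, 0.217 and 0.0651.

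Of 8 measured aryl hydrocarbon receptor targets, which sense xenobiotic ligands, 3 rose, where 1.95% of all genes tested were called higher. CYP1B1 was at 312, 297 and 264 CPM in the SHP1705 libraries, against 206, 206 and 217 CPM in the DMSO libraries (0.47 ± 0.05, adjusted p = 2.72e-06). TIPARP, a feedback inhibitor of the receptor, was at 55.99, 57.99 and 61.1 CPM with SHP1705, against 39.2, 39.4 and 40.7 CPM with DMSO (0.55 ± 0.07, adjusted p = 8.9e-06). CYP1A1 was at 9.30, 10.3 and 10.2 CPM after SHP1705, against 5.79, 4.37 and 5.61 CPM after DMSO (0.93 ± 0.15, adjusted p = 0.000366). The targets NQO1 (0.04) and ALDH3A1 (-0.04) were not called. Of 5 other drug metabolism genes the transporter gene ABCC3 rose (0.32 ± 0.06).

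Of genes of protein quality control, none of 33 proteasome subunits was called (median -0.02), where 1.95% of all genes tested were called higher and 2.51% lower. Of 24 heat shock genes 2 fell, HSP90AA1 (-0.17 ± 0.04) and HSPB1 (-0.18 ± 0.05), between 0 and 1 fell in each fit without 1 library, and HSPA1A was at 0.04 ± 0.05 without a call. Of 21 endoplasmic reticulum chaperones 5 rose, namely HSPA5 (0.24 ± 0.04, adjusted p = 0.000237), CALR (0.19 ± 0.04), HSP90B1 (0.20 ± 0.04), PDIA3 (0.18 ± 0.04) and MANF (0.18 ± 0.05). Without DMSO replicate 1 or 2 or SHP1705 replicate 3, 3 of the 21 rose. Among 27 measured targets of ATF4 and of the integrated stress response, 3 were higher and 1 lower. Higher were DDIT4, an mTORC1 inhibitor (0.43 ± 0.05, adjusted p = 1.07e-05), the cysteine synthesis enzyme CTH (0.57 ± 0.12) and PPP1R15A (0.16 ± 0.04), and lower was CEBPB (-0.58 ± 0.11). Of 28 NRF2 targets TXNRD1 (0.30 ± 0.04), AKR1C3 (0.51 ± 0.07) and SQSTM1 (0.14 ± 0.04) rose and OSGIN1 fell. Of 23 autophagy and lysosome genes CTSD (0.23 ± 0.04), CTSL and SQSTM1 rose and TFEB (-0.40 ± 0.10) fell. The calls of HSPB1, MANF, PPP1R15A and SQSTM1 were lost in all 6 fits without 1 library. That of HSP90AA1 was lost in 5 of them, and those of PDIA3 and TFEB in 3 each. Counting all alternatives, HSPB1 lost the call in 8 and PPP1R15A in 7. For HSP90AA1, HSPB1, PDIA3, MANF, PPP1R15A, SQSTM1 and TFEB the adjusted p reached 0.127, 0.155, 0.085, 0.153, 0.162, 0.181 and 0.104.

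In the remaining lists between none and 3 members were called in 1 direction, where 1.95% of all genes tested were called higher and 2.51% lower. Of 30 cholesterol and fatty acid genes the lanosterol synthase LSS fell (-0.45 ± 0.05, adjusted p = 7.5e-06) and the elongase ELOVL6 rose (0.32 ± 0.05, adjusted p = 0.000544). None of 28 nuclear genes of oxidative phosphorylation was called. Of 13 mitochondrially encoded transcripts ND2 (0.22 ± 0.05), ND1 (0.20 ± 0.05) and CYTB (0.20 ± 0.05) rose. None rose without SHP1705 replicate 3, and 1 without any 1 DMSO library. Of 11 glucocorticoid targets PER1 and FKBP5 (-0.42 ± 0.06, adjusted p = 3.31e-05) fell and ERRFI1 rose (0.35 ± 0.04, adjusted p = 7.5e-06). The zinc exporter SLC30A1 was the 1 called of 7 metallothionein and zinc genes (-0.35 ± 0.06). In the BCL2 family 1 of 13 rose (BMF) and 1 fell (MCL1, -0.15 ± 0.04). None of 20 NF-kB and cytokine genes was called. IFI27 (0.33 ± 0.09) was the 1 called of 20 interferon genes, and DUSP6 (0.18 ± 0.05) the 1 called of 12 ERK feedback genes. Of 12 AP-1 and early genes FOSL2 rose (0.20 ± 0.05) and IER3 fell (-0.29 ± 0.05). ELF3, the called luminal marker, rose by 0.56 ± 0.11. The call of MCL1 was lost in all 6 fits without 1 library. Those of ND1, ND2, CYTB, IFI27, DUSP6 and FOSL2 were lost in 4, 1, 4, 5, 5 and 4 of them. For ND1, ND2, CYTB, MCL1, IFI27, DUSP6 and FOSL2 the adjusted p reached 0.157, 0.0676, 0.209, 0.144, 0.17, 0.141 and 0.149.

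The effect at 24 h was set against that of the same dose at 8 h in the MG132 set, where 1249 of 16591 genes (7.53%) were called, 572 higher (3.45%) and 677 lower (4.08%). At 24 h 39 of 722 called genes changed 2-fold or more, and at 8 h 15 of 1249. Of the 722, 211 were also called at 8 h, which is 29.2% of the calls at 24 h and 16.9% of those at 8 h, and 208 of them had the same sign. The comparisons share no library. The sets are separate experiments in the design text, with deeper libraries at 8 h (34.5 to 38.7 M counts), so time and set cannot be told apart. At 8 h SHP1705 replicates 2 and 3 held POSTN at 29.9 and 31.2 CPM, against at most 0.284 CPM in the other SHP1705 and the DMSO libraries, and counts without these libraries are given below. The 8 h libraries of the carfilzomib set were not used, because PER3 and HSPA1A in several of them go against the labels.

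The difference between the effects at 24 h and at 8 h was called for 214 of 17793 genes (1.2%). Without the MG132-set libraries of over 100 POSTN counts, which leaves SHP1705 at 8 h with 1 library that is assumed to vary like the other groups, it was called for 31 genes, 29 of them among the 214. Among the 214 were 6 of the 14 E-box genes, all with a lower effect at 24 h than at 8 h. CRY1, given above at 24 h, was at 21.01, 19.1 and 20.7 CPM with SHP1705 at 8 h, against 38.2, 34.3 and 31.7 CPM with DMSO. Its log2 fold change was -2.61 ± 0.09 at 24 h and -0.78 ± 0.06 at 8 h, a difference of -1.83 ± 0.11 (adjusted p = 1.36e-12). PER3 was at -4.34 ± 0.17 at 24 h and -1.60 ± 0.09 at 8 h (-2.74 ± 0.20, adjusted p = 1.21e-10). PER2 (-2.84 ± 0.56, adjusted p = 0.00486), PER1 (-1.77 ± 0.30, adjusted p = 0.000999), CRY2 (-1.29 ± 0.18, adjusted p = 9.92e-05) and BHLHE41 (-0.79 ± 0.20, adjusted p = 0.0377) had differences of the same sign. ARNTL rose by 0.68 ± 0.15 more at 24 h (adjusted p = 0.0129). In that smaller fit the differences were -1.80 for PER1 (adjusted p = 0.0501), -2.77 for PER2 (adjusted p = 0.159), -0.64 for BHLHE41 (adjusted p = 0.573) and 0.57 for ARNTL (adjusted p = 0.346), none of them called, while those of CRY1, CRY2 and PER3 were called. The REV-ERB genes had differences of the other sign that were not called, NR1D1 at 0.49 ± 0.31 (adjusted p = 0.588) and NR1D2 at 0.40 ± 0.11 (adjusted p = 0.0704). At 8 h mean DMSO levels were 2.32 CPM for PER1, 2.09 for PER2, 14.2 for PER3, 6.93 for CRY2 and 4.12 for BHLHE41. Each lay below every 24 h DMSO library, while ARNTL (9.36 CPM) lay above. Mean SHP1705 levels of PER1, CRY2 and BHLHE41 at 8 h lay within the range of their 24 h SHP1705 libraries. Those of CRY1, PER2 and PER3 lay above all 24 h SHP1705 libraries. The sets were scaled apart, so whether the differences of PER1, CRY2 and BHLHE41 lie in the DMSO levels was not tested.

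**Figure D4:**
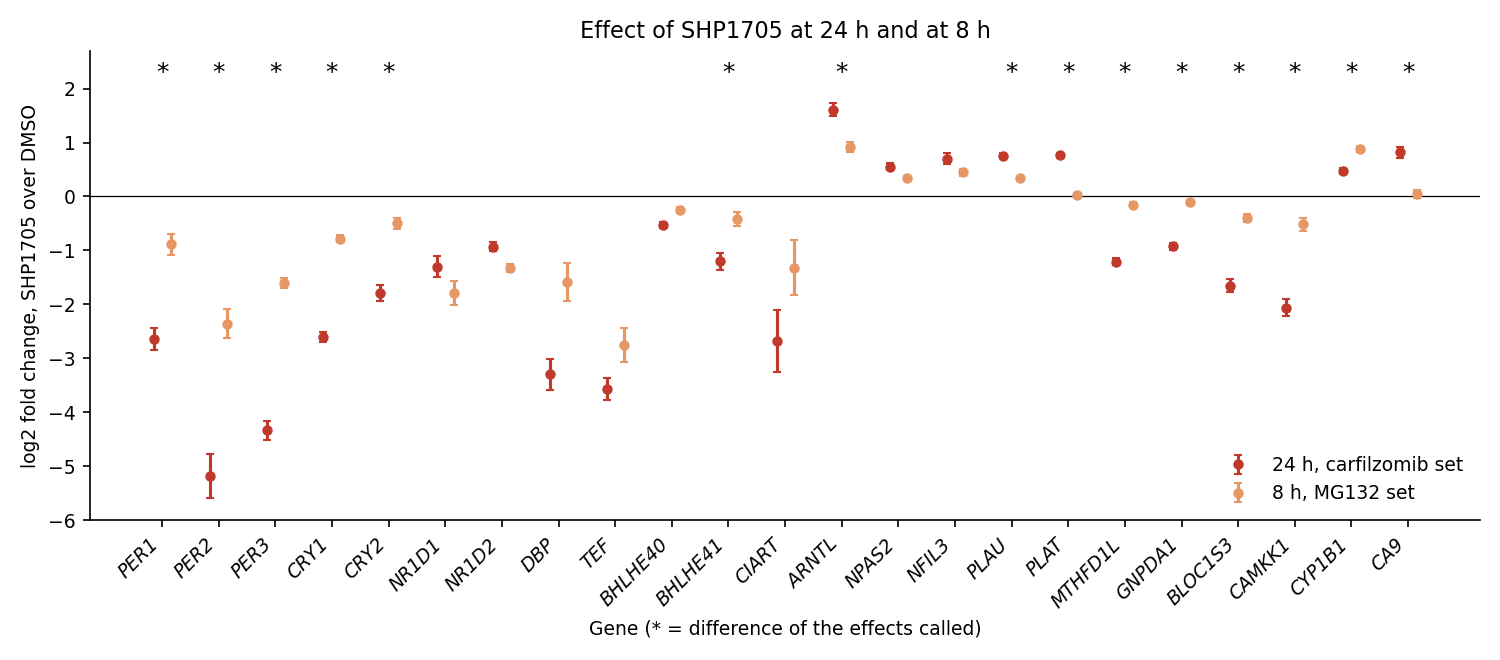
Log2 fold change of SHP1705 over DMSO (± SE) at 24 h in the carfilzomib set (red) and at 8 h in the MG132 set (orange) for clock genes and others named in the text, with a star where the difference of the effects was called. CRY1 and PER3 lie lower at 24 h, NR1D1 and NR1D2 carry no star, and PLAT and CA9 lie near 0 at 8 h.

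Genes outside the clock also changed further at 24 h than at 8 h, and PLAT and GNPDA1 were not called at 8 h. MTHFD1L was at -1.21 ± 0.07 at 24 h and -0.16 ± 0.05 at 8 h (difference -1.05 ± 0.08, adjusted p = 1.21e-10). PLAT at 8 h was at 168, 179 and 171 CPM with SHP1705, against 173, 167 and 170.5 CPM with DMSO. Its log2 fold change was 0.76 ± 0.05 at 24 h and 0.02 ± 0.04 at 8 h (0.74 ± 0.06, adjusted p = 7.48e-09). GNPDA1 was at -0.93 ± 0.07 at 24 h and -0.11 ± 0.04 at 8 h (-0.82 ± 0.08, adjusted p = 5.64e-08). BLOC1S3, CAMKK1 and PLAU, like MTHFD1L, were called at 8 h already. BLOC1S3 was at -1.66 ± 0.12 at 24 h and -0.40 ± 0.08 at 8 h (difference -1.26 ± 0.14). CAMKK1 was at -2.06 ± 0.16 at 24 h and -0.52 ± 0.12 at 8 h (difference -1.54 ± 0.20). PLAU was at 0.76 ± 0.04 at 24 h and 0.34 ± 0.03 at 8 h (difference 0.42 ± 0.05, adjusted p = 6.84e-06). These 6 genes, CRY1 and PER3 were the 8 with the lowest p for the difference. Over all 17793 genes tested, the difference was called positive for 86 and negative for 128. Of 30 glycolysis and hypoxia genes, 8 had a higher effect at 24 h, among them CA9 (0.77 ± 0.12, adjusted p = 0.00044), PGK1 (0.29 ± 0.05), BNIP3 (0.33 ± 0.06) and NDRG1 (0.24 ± 0.05), of which BNIP3 at 0.31 (adjusted p = 0.212) and NDRG1 at 0.21 (adjusted p = 0.268) were not called in the fit that leaves 1 library of SHP1705 at 8 h. CYP1B1 went the other way, with a rise of 0.47 ± 0.05 at 24 h and 0.88 ± 0.05 at 8 h (-0.41 ± 0.08, adjusted p = 0.00316). Ribosomal protein genes, of which 24 of 30 fell at 8 h against 4.08% of all genes tested, had no called difference and none called at 24 h.

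The effect of SHP1705 in cells that also had carfilzomib, an irreversible proteasome inhibitor, was read between the combination and carfilzomib alone in the same 24 h set. It was called for 1460 of 16183 genes (9.02%), 705 higher (4.36%) and 755 lower (4.67%). With SHP1705 alone and with carfilzomib present 280 genes were called in both, which is 38.8% of the 722 and 19.2% of the 1460, and 276 had the same sign. The 2 comparisons share no library. PER3 was at 0.619, 1.05 and 0.923 CPM with both drugs, against 25.03, 24.2 and 25.3 CPM with carfilzomib alone (-4.84 ± 0.17, adjusted p = 1.08e-14). Of the 12 E-box genes 11 fell, and ARNTL, NPAS2 and NFIL3 rose. PLAU (1.05 ± 0.04) and PLAT (0.88 ± 0.05) rose here too. MTHFD1L (-1.05 ± 0.07), CAMKK1 (-1.45 ± 0.13) and BLOC1S3 (-1.15 ± 0.11) fell.

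Whether the effect differed with carfilzomib was tested directly, and 78 genes (0.482%) were called. This count varied widely between fits. It was 477 without carfilzomib replicate 2, 170 without SHP1705 replicate 1, between 20 and 29 without any one of the other SHP1705, the DMSO or the combination libraries, and 324 with DESeq2. With an offset for gene GC content 27 of 99 called differences were positive, against 34 of 78 without it. CRY1 fell less with carfilzomib present. It was at 12.8, 12.9 and 11.8 CPM with both drugs and 38.2, 33.9 and 34.3 CPM with carfilzomib alone, a difference of effects of 1.10 ± 0.13 (adjusted p = 0.000104). NR1D2 fell further, at 17.8, 17.6 and 20.4 CPM with both drugs and 61.8, 60.4 and 72.02 CPM with carfilzomib alone (-0.87 ± 0.11, adjusted p = 0.000382). NR1D1 had a difference of the same sign (-1.42 ± 0.29, adjusted p = 0.0269), called in 10 of 18 alternatives. CRY1 and NR1D2 were called in all 18.

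**Figure D5:**
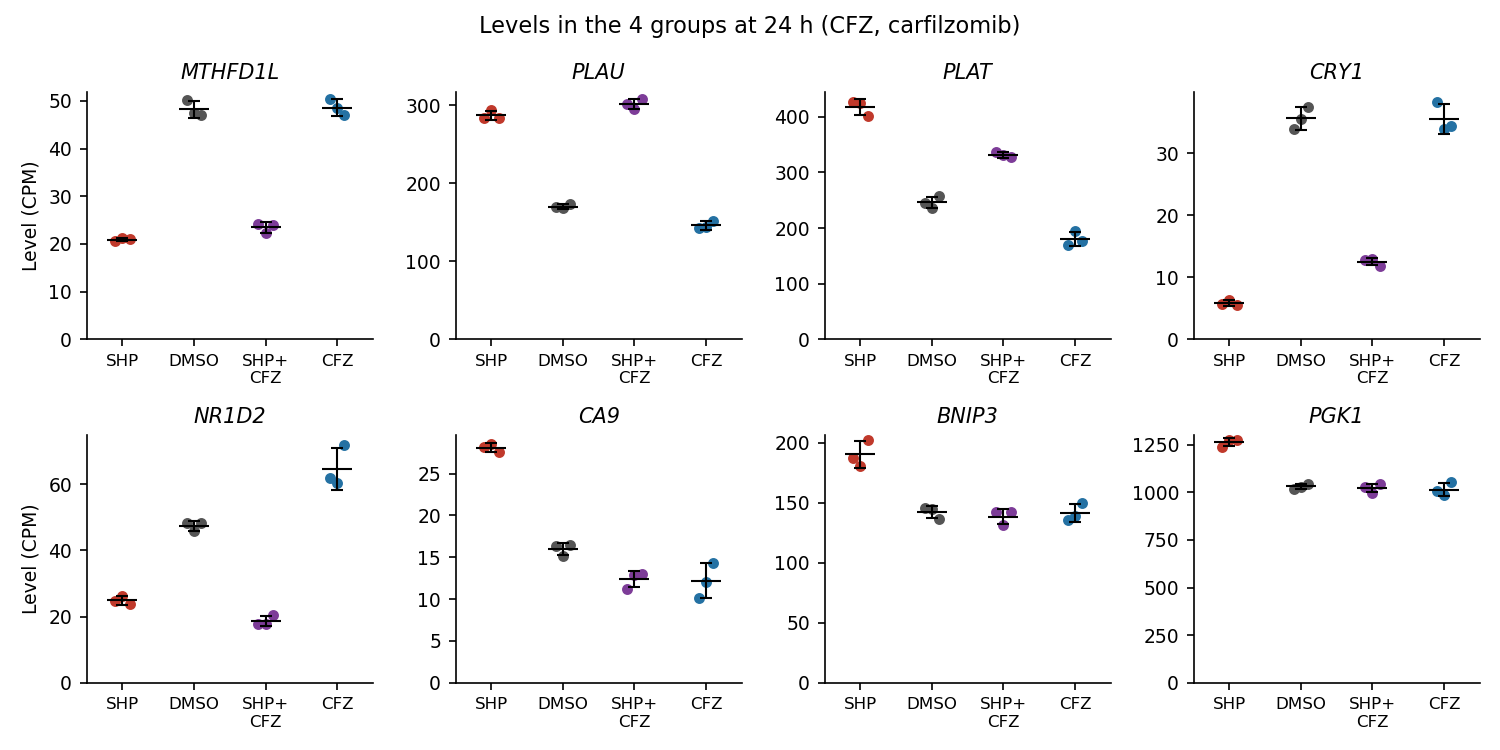
Level in CPM (axes from 0) of 8 genes in each of the 3 libraries of SHP1705, DMSO, SHP1705 with carfilzomib (SHP+CFZ) and carfilzomib (CFZ) at 24 h, with mean and SD in black. MTHFD1L, PLAU and PLAT differ between SHP1705 and its control in the same direction with and without carfilzomib, while CA9, BNIP3 and PGK1 stand higher with SHP1705 alone than in the other 3 groups.

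CA9, BNIP3, NDRG1 and PGK1, which rose with SHP1705 alone, were not called with carfilzomib present. CA9 was at 11.3, 12.9 and 13.003 CPM with both drugs and 10.2, 12.1 and 14.4 CPM with carfilzomib alone, and its difference of effects was -0.80 ± 0.15 (adjusted p = 0.0151). BNIP3 was at 142, 131 and 142 CPM with both drugs and 136, 139 and 150.2 CPM with carfilzomib alone (-0.45 ± 0.08, adjusted p = 0.00692). NDRG1 (-0.37 ± 0.06, adjusted p = 0.00218) and PGK1 (-0.28 ± 0.05, adjusted p = 0.0171) had negative differences as well. In all 5 of 29 list members did and none was positive, against 44 negative and 34 positive among all 16183 genes tested. The remaining one of the 5 was LDHA (-0.39 ± 0.06, adjusted p = 0.00218). VEGFA was not among them (0.06 ± 0.07, adjusted p = 0.745). BNIP3 and NDRG1 were called in all 18 alternatives, CA9 in 15 and PGK1 in 12.

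The lowest p of this test also fell on genes that SHP1705 alone left without a call. HSPA8, the constitutive HSP70, was at -0.14 ± 0.05 with SHP1705 alone and -0.74 ± 0.05 on carfilzomib (difference -0.60 ± 0.07, adjusted p = 0.000104). Its co-chaperone gene DNAJA1 (-0.37 ± 0.06, adjusted p = 0.00218), the ubiquitin gene UBB (-0.55 ± 0.08, adjusted p = 0.00184) and the metalloprotease inhibitor gene TIMP3 (-0.52 ± 0.07, adjusted p = 0.000414) had negative differences. SLC43A2, an amino acid transporter gene, had a positive one (0.74 ± 0.11, adjusted p = 0.00218). These 5 were called in all 18 alternatives. PLAU rose further with carfilzomib present (0.29 ± 0.06, adjusted p = 0.032), which was called in 7 of 18.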

How the data were processed

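Poly-A-selected RNA was sequenced from 36 libraries of MDA-MB-231 cells. Trimmomatic, FastQC, HISAT2, featureCounts and the hg38 build are named in the submitters' processing notes, and neither versions nor the strandedness used by featureCounts is given in the sources used here. The deposited values are whole-number counts per gene for 54583 genes, which the authors made from their reads and did not normalize.

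Genes were filtered with edgeR's filterByExpr, scaled by TMM and tested with edgeR 4.0.16 (R 4.3.3) by its quasi-likelihood test on 4 groups of a set (12 libraries), or on 8 groups (24 libraries) for the difference between 24 h and 8 h. Genes were called at a Benjamini-Hochberg adjusted p under 0.05 over all those tested, and log2 fold changes used a prior count of 0.125. The SE after a log2 fold change is its size divided by the square root of the F value of the test. It is thus an approximation that the model does not itself estimate. DESeq2 1.42.0, other scalings and filters, a replicate block and leaving out each library were alternatives. The procedure was tested on simulated data. No 2 replicates held identical values, and replicates differed by more than counting noise (chi-square per degree of freedom 3.29 to 6.08 within the 24 h SHP1705 and DMSO groups). It was 4.12 to 5.76 within the combination and 7.27, 9.40 and 16.3 within carfilzomib alone. These groups share the estimate of the spread at 24 h.

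Named were all clock genes; among called genes that reached 1 CPM on average and had no overlap of groups, the 20 highest, the 20 lowest and the 10 of lowest p; up to 6 called genes per list, by p; and the 8 of lowest p in each difference of effects. Other genes given with values, such as members that were not called, were added as context after their values were seen. A few genes that meet these rules or belong to the lists are not reported here, although counts over lists include them. The members and lists were chosen with earlier results of these data known. Promoters and overlaps come from RefSeq (GRCh38.p14), matched by symbol or, failing that, by synonym.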

Additional observations from a re-analysis of the deposited data

Results flagged for a closer look

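Named genes whose response to SHP1705 differed by the test of the difference itself are given here as log2 differences, with edgeR's quasi-likelihood test called at a Benjamini-Hochberg adjusted p under 0.05. Of the 18 alternatives tried for each, all kept the sign of every difference below.

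For 24 h minus 8 h, with time and set inseparable, the clock genes differed by -1.77 (PER1), -2.84 (PER2), -2.74 (PER3), -1.83 (CRY1), -1.29 (CRY2), -0.79 (BHLHE41) and 0.68 (ARNTL). Hypoxia genes differed by 0.77 (CA9), 0.29 (PGK1), 0.33 (BNIP3) and 0.24 (NDRG1). The plasminogen activators differed by 0.74 (PLAT) and 0.42 (PLAU). Other genes differed by -1.05 (MTHFD1L), -0.82 (GNPDA1), -1.26 (BLOC1S3), -1.54 (CAMKK1) and -0.41 (CYP1B1). The call held in all 18 alternatives for PER3, CRY1, CRY2, CA9, PGK1, PLAT, PLAU, MTHFD1L, GNPDA1 and BLOC1S3. It held in 17 for CAMKK1 (no adjusted p from DESeq2), BNIP3, NDRG1 and CYP1B1, in 16 for PER1 and PER2, in 14 for ARNTL and in 4 for BHLHE41.

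For the effect with minus without carfilzomib at 24 h, the clock genes differed by 1.10 (CRY1), -1.42 (NR1D1) and -0.87 (NR1D2). Hypoxia genes differed by -0.80 (CA9), -0.28 (PGK1), -0.45 (BNIP3) and -0.37 (NDRG1). The difference was 0.29 for PLAU, -0.60 for HSPA8, -0.37 for DNAJA1, -0.55 for UBB, -0.52 for TIMP3 and 0.74 for SLC43A2.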

How the results depend on the processing

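For SHP1705 against DMSO at 24 h (722 genes), 1171 were called from the groups compared alone, and leaving out 1 library at a time gave 419 to 687. Without a filter on low counts 928 were called, with DESeq2 959, with RLE factors 724 and with a GC offset, added after seeing the data, 994. On carfilzomib (1460 genes) the groups compared alone gave 913 and leaving out a library 869 to 1852. The difference with minus without carfilzomib (78 genes) gave 364 without the filter, 324 with DESeq2, 20 to 477 leaving out a library and 99 with the GC offset. At 8 h (1249 genes) leaving out a library gave 619 to 892, and 644 genes were called without the libraries of over 100 POSTN counts. For 24 h minus 8 h (214 genes) the count was 393 without the filter, 388 with DESeq2, 394 from the groups compared alone, 31 without the POSTN libraries and 130 to 258 leaving out a library.

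With the replicate number as a replicate block, 773, 1175, 201, 1556 and 91 genes were called at 24 h, at 8 h, for 24 h minus 8 h, on carfilzomib and for the difference with minus without it, and with a GC offset 1035 at 24 h. Same-numbered SHP1705 and DMSO libraries at 24 h had deviations correlated at 0.107, 0.0456 and 0.00822. Correlations this low cannot show whether a replicate number marks an experiment, and the main fit assumed no pairing.

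Of 109 named genes called at 24 h, 77 kept the call and direction under every alternative that gave them an adjusted p, which DESeq2 did not for CIART, 1 of the 77. Over all named genes and alternatives 133 of the single-gene comparisons lost the call, 5 gained it and 3 changed sign. The sign changes were in genes without a call. UBB lay at -0.00531 without DMSO replicate 2 (-0.00531 to 0.0489 leaving out a library), and SLC43A2 at 0.0133 without DMSO replicate 3 and 0.0274 without SHP1705 replicate 3 (-0.0855 to 0.0274). DESeq2 gave no adjusted p for CIART, RORA, USP2, IL1RN and C10orf55. The cause of these shifts was not tested.

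Depth limits genes of few reads, such as PER2 and CIART with SHP1705. The RNA is from 1 line at 1 dose, and 3 libraries a group leave single-library counts unstable.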
